A study of Mus musculus with 12 samples.

Results

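The comparison sets the 4 arrays of replicate number 3 against the 4 arrays of replicate number 2, 8 of the 12 arrays of the series, with the treatment as a block. The arrays were chosen by a code in the sample titles that is written like a date and is shared by all arrays of a replicate number. The labels say neither what the code marks nor whether each number is its own isolation of cells. The p-values therefore cover no more than the scatter among the arrays at hand, which may be technical. Every array carried RNA of cardiac fibroblasts from hearts of wildtype C57BL/6J mice aged 1 to 7 days. The cells had spent 10 to 14 days in culture and had become myofibroblasts, and no group carried a genetic change. Each number holds 1 array of each of 4 treatments given for 8 h. These are carrier, 40 nM sCD74 (a soluble form of CD74, a receptor for MIF), 8 nM MIF (macrophage migration inhibitory factor, a cytokine), and both proteins together. The comparison asks which transcripts of cardiomyocytes, endothelial cells and other cells differed between the numbers.

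A culture from a newborn heart begins with all the cells that digestion frees, and fibroblasts come to dominate it because they attach readily and divide. Cardiomyocytes from newborn hearts also attach and beat in the dish but divide little, and endothelial cells and resident macrophages can persist beside the fibroblasts. Cardiomyocyte transcripts encode the sarcomere, the calcium store that triggers contraction, and the oxygen and fatty acid supply of a working muscle. In RNA of a whole culture, fewer cells of a type and less RNA per cell cannot be told apart.

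Levels are the deposited log2 values, and a difference is always number 3 minus number 2 on that scale, with its standard error (SE) from a limma fit over all 22206 probe sets that are not controls. A probe set was called when its Benjamini-Hochberg adjusted p in that fit was under 0.05. The background was 7.55, the average over the 8 arrays of each array's negative control median. Where both means of a probe set lay below it no size is given. Where only the lower mean did, a bound ("at least") is given, the higher mean minus a floor. The floor is the mean, over the 4 arrays of the lower number, of the higher of the array's own negative control median and its own value. Those control medians averaged 7.46 in number 2 and 7.63 in number 3, so the bounds differ somewhat from distances to 7.55. The median of the array medians moved little, with values from 8.10 to 8.14, but the negative control median was higher in number 3 with carrier (7.70) and sCD74 (7.90) than in the other 6 arrays (7.37 to 7.53). The gap between positive and negative controls was smallest in number 3 with sCD74, at 3.67 against 3.98 to 4.25 elsewhere. Arrays correlated at 0.9959 to 0.9969 within number 2, at 0.9938 to 0.9961 within number 3, and at 0.9931 to 0.9951 between the numbers within a treatment.

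Number 3 had far lower levels of cardiomyocyte transcripts than number 2 and higher levels of several endothelial transcripts. Of 22206 probe sets, 92 were called (0.414%), 67 of them lower in number 3 (0.302%) and 25 higher (0.113%). All 92 moved the same way in all 4 treatments. The median difference over all probe sets was -0.01 and the median SE was 0.12. Levels in number 3 did not overlap those in number 2 for 1194 probe sets on the higher side (5.38%) and 1065 on the lower side (4.8%). A gene symbol was known for 63 of the lower and 24 of the higher calls. In 21 of the 92 the lower mean was below the background, and in 8 of these both means were. Leaving out the 2 arrays of a treatment in turn, 21 of the 92 calls were kept in all 4 fits, 19 lower and 2 higher, and the number of calls fell to 25 without the carrier arrays, 40 without sCD74 and 30 without both proteins, against 114 without MIF.

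**Figure D1:**
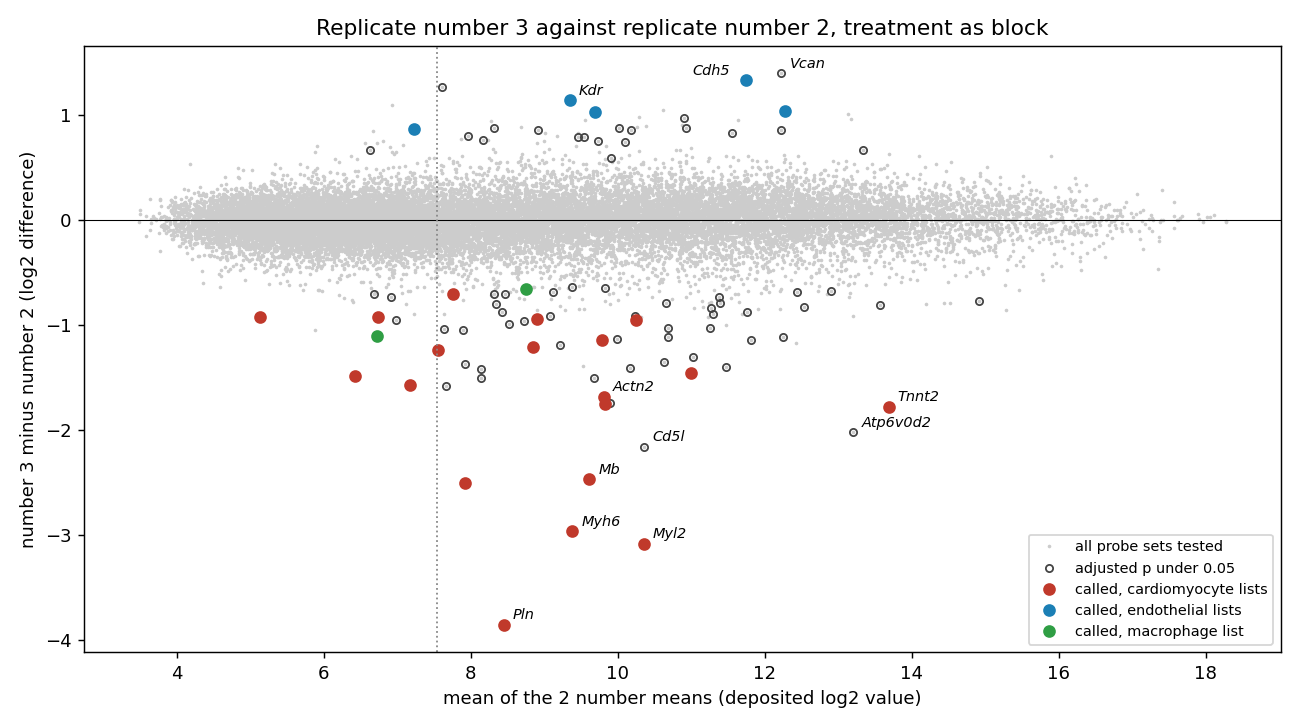
Difference between the numbers (number 3 minus number 2, log2, vertical axis) against the mean level of both numbers (deposited log2 value, horizontal axis) for all 22206 probe sets. Open circles are called probe sets, filled circles called members of the cardiomyocyte (red), endothelial (blue) and macrophage (green) lists, and the dotted line is the background of 7.55; the lowest points are cardiomyocyte transcripts, down to -3.86 for Pln.

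The deepest difference was that of Pln, which encodes phospholamban, the brake on the calcium pump of the sarcoplasmic reticulum. In number 2 its level was 10.58 under carrier and 10.48 under sCD74, and it was 10.13 under MIF alone and 10.33 under both proteins. In number 3, with the treatments in the same sequence, as in every run of 4 values that follows, it was 6.70, 6.62, 6.42 and 6.35. All 4 arrays of number 2 stood well above the background and all 4 of number 3 below it. Number 3 was lower by at least 2.75, counted down to its own floor, and the fitted difference was -3.86 ± 0.10 (adjusted p = 7.04e-07). In replicate number 1, which took no part in the test, the mean of Pln was 10.10.

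Myl2, the ventricular regulatory myosin light chain, stood at 12.07, 12.02, 11.69 and 11.81 in number 2 and at 8.81, 8.56, 9.22 and 8.66 in number 3. The difference was -3.08 ± 0.16 (adjusted p = 6.01e-05). Myh6, the alpha myosin heavy chain that drives contraction in the mouse heart, stood at 10.63, 11.00, 10.80 and 11.02 in number 2 and at 7.71, 7.80, 8.25 and 7.82 in number 3. Its difference was -2.97 ± 0.13 (adjusted p = 2.52e-05). For both myosins the groups lay far apart, and the array of number 3 with MIF was the highest of its number. In number 3, Myh6 was close to its array's own negative control median with carrier (7.71 against 7.70). With sCD74 it lay below that median (7.80 against 7.90), so the size of the Myh6 difference is less certain than its SE. Mb, the oxygen store myoglobin, stood at 11.07, 10.77, 10.73 and 10.83 in number 2 and at 8.63, 8.07, 8.23 and 8.58 in number 3, a difference of -2.47 ± 0.11 (adjusted p = 2.52e-05). Means in replicate number 1 were 11.45 for Myl2, 9.69 for Myh6 and 10.18 for Mb, nearer to number 2 than to number 3.

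Tnnt2, cardiac troponin T of the thin filament, stood at 14.61, 14.63, 14.40 and 14.66 in number 2 and at 12.70, 12.80, 12.70 and 12.98 in number 3. Its difference was -1.78 ± 0.10 (adjusted p = 1.28e-04), and it stayed high above the background in both numbers. Actn2, the alpha-actinin of the Z-disc, stood at 10.68, 10.66, 10.58 and 10.70 in number 2 and at 8.91, 9.16, 8.93 and 8.89 in number 3. The 4 arrays of each number lay close together, and the difference was -1.68 ± 0.10 (adjusted p = 2.24e-04). Myoz2, a Z-disc partner of calcineurin, stood at 9.40, 9.41, 8.81 and 9.08 in number 2 and below the background in all 4 arrays of number 3 (6.37 to 7.20). The fall was of at least 1.54 (adjusted p = 0.00129).

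**Figure D2:**
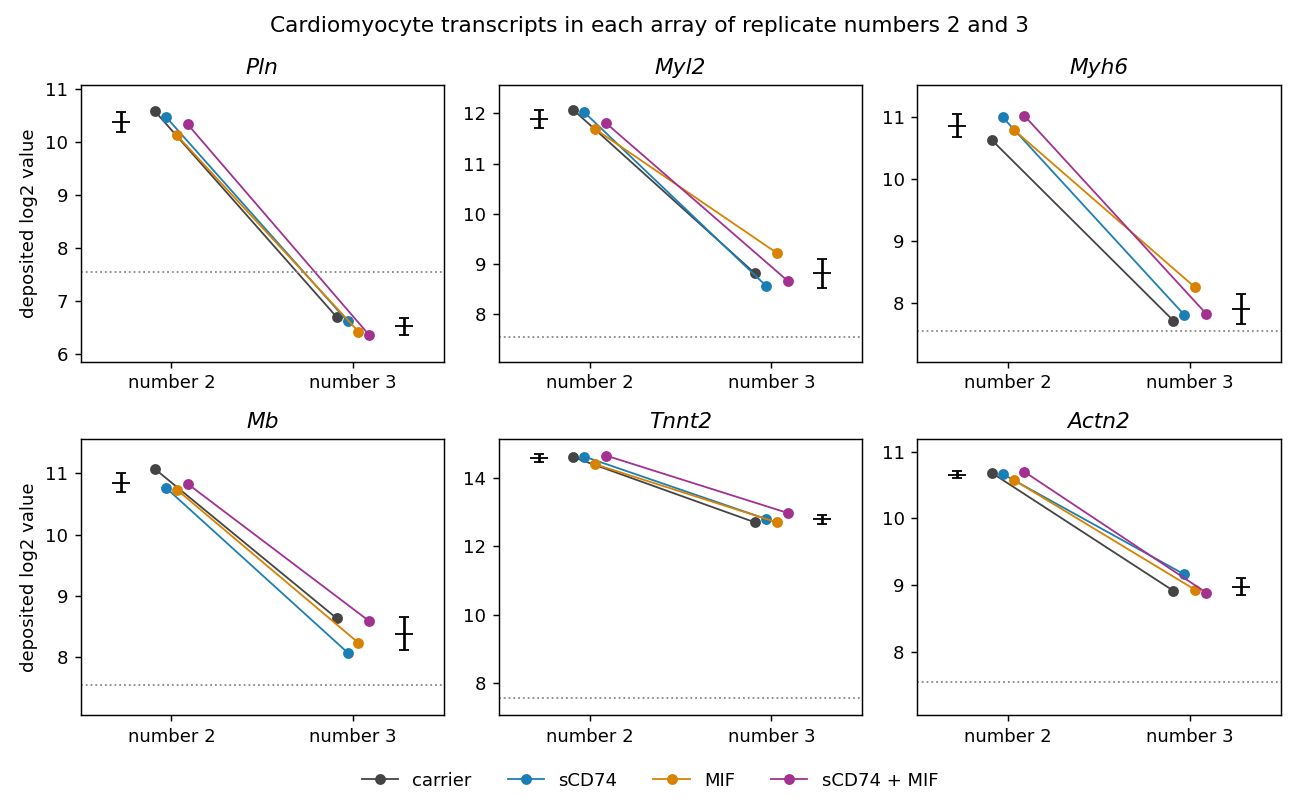
Deposited log2 values of 6 cardiomyocyte transcripts in each array of replicate numbers 2 and 3, with 1 point per array, lines joining arrays of the same treatment, and the mean ± SD of the 4 arrays drawn as a bar beside each number. In all 6 panels the 4 arrays of number 3 lie below the 4 of number 2, and Pln alone crosses the background, drawn as a dotted line at 7.55.

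Promoters of genes with some of the largest differences are printed here, of 3 cardiomyocyte genes that were lower in number 3 and, for comparison, of 1 endothelial gene that was higher. They were read from RefSeq promoters of GRCm38.p6, 250 bases before to 50 after the start of the transcript. Capitals mark matches, on either strand, to 6 motifs. Besides the MEF2 motif and the CArG box of muscle genes, these were TATAAA of the core promoter. The E-box was searched as CAGCTG, the core of ETS factors as AGGAAG, and the site of the zinc finger family of Gata4 as AGATAA. A MEF2 match can contain TATAAA, but no matches overlapped in these promoters. Pln lies at chr10:53337436-53337735 on the + strand, Myh6 at chr14:54966558-54966857 on the - strand, and Myoz2 at chr3:123034938-123035237 on the - strand. Efnb2, the endothelial gene, lies at chr8:8661193-8661492 on the - strand.
Pln: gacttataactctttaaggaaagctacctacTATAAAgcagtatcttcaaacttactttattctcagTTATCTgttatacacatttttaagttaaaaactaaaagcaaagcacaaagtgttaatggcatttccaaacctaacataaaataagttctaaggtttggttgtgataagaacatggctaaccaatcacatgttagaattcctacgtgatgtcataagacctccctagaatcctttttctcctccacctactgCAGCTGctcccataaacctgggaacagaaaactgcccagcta
Myh6: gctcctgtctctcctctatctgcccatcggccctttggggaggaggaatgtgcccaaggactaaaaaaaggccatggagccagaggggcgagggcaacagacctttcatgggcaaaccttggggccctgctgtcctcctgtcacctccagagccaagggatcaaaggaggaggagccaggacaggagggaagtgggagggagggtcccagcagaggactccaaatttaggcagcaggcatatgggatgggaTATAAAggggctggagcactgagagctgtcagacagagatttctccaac
Myoz2: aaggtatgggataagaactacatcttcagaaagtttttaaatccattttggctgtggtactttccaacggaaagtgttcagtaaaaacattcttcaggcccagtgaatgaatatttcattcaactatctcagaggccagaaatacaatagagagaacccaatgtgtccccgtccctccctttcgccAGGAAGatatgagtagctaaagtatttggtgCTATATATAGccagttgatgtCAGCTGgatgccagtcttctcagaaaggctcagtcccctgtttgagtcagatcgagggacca
Efnb2: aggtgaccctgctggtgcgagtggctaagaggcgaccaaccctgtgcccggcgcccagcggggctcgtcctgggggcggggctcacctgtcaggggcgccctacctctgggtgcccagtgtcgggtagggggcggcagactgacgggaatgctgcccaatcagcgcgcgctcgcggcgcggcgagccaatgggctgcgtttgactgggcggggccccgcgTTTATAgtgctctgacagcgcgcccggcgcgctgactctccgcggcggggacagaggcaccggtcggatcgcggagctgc

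Myh6 had its TATAAA from base 2 after the printed start and Efnb2 had one, on the other strand, from base -30. Myoz2 held a MEF2 motif from base -33, and Pln held AGATAA from base -183 and CAGCTG from base 9. Of the 19 cardiomyocyte genes called lower, 17 had promoters in the table, 25 in all. CAGCTG was found in 10 of these (40%) against 16.3% of all 32851 promoters, AGATAA in 6 (24%) against 11.2%, and TATAAA in 5 (20%) against 13.6%. The MEF2 motif and the CArG box were each in 2 (8%), against 3.19% and 1.63%, and AGGAAG in 5 (20%) against 35.4%. Of the 5 endothelial genes called higher, 4 had promoters in the table, 4 in all. TATAAA and AGGAAG were each in 1 of these (25%), and the MEF2 motif, the CArG box, AGATAA and CAGCTG in 0. Kdr, another endothelial gene called higher, held no match to any of the 6 motifs, and its promoter is not printed. These matches describe letters in a window and were not tested.

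In the list of sarcomere genes, 11 of 29 measured members were called lower and 0 higher, against 0.302% of all probe sets called lower. The list's median difference was -0.60 against -0.01 over all probe sets, 27 of 29 members lay below 0, and the arrays did not overlap in 21, all lower in number 3, against 4.8% of all probe sets. The mean level of the list was 8.75 to 8.82 in the 4 arrays of number 2 and 7.85 to 7.95 in those of number 3. Beside the genes above, the calls with both means above the background were Actc1 (cardiac alpha-actin, -1.46 ± 0.19, adjusted p = 0.0149), Tnnc1 (troponin C, -0.96 ± 0.12, adjusted p = 0.0127) and Tnni3 (cardiac troponin I, -0.94 ± 0.13, adjusted p = 0.0246). Nebl, a nebulin relative of the Z-disc, dropped below the background, by at least 0.54 (adjusted p = 0.0134). Myh7, the beta myosin heavy chain, and Myom2 of the M-band were called with both means below the background. Probe sequences were not used here, so signal shared between the close paralogs Myh6 and Myh7 was not tested. Not every sarcomere transcript differed by such an amount: Myl4, the atrial light chain, stood at 9.15 in both numbers (0.00 ± 0.15, adjusted p = 0.997). Ankrd1, a stress-induced titin partner, had a difference of -0.02 ± 0.11 and Tpm1, a tropomyosin also used by myofibroblasts, of -0.05 ± 0.10. Of the 29 members, 13 lay below the background in both numbers, among them Ttn and Mybpc3. The number of sarcomere calls was 7 without the carrier arrays, without the sCD74 arrays and without the arrays of both proteins, and 11 without the MIF arrays; Myl2, Myh6, Myoz2, Tnnt2 and Actn2 were called in all 4 of these fits.

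In the list of calcium handling, excitation and energy genes, 8 of 26 measured members were called lower and 0 higher, against 0.302% and 0.113% of all probe sets. The median difference was -0.26, and 13 members had no overlap between the numbers, all lower in number 3, against 4.8%. The mean level of the list was 8.54 to 8.58 in number 2 and 7.87 to 7.98 in number 3. Fabp3, the fatty acid carrier of heart muscle, stood at 10.98, 10.58, 10.49 and 10.74 in number 2 and at 9.11, 8.36, 9.37 and 8.93 in number 3 (-1.76 ± 0.16, adjusted p = 0.0032). Trdn, triadin of the calcium release complex, had a difference of -1.14 ± 0.11 (adjusted p = 0.00358) and Pygm, muscle glycogen phosphorylase, of -1.21 ± 0.15 (adjusted p = 0.0139). Casq2, the cardiac calcium buffer calsequestrin, dropped below the background, by at least 0.32 (adjusted p = 0.00542), and so did Eno3, muscle enolase, by at least 0.48 (adjusted p = 0.0259). Nppa, the atrial natriuretic peptide precursor, was called with both means below the background, whereas its mean in replicate number 1 was 8.42. The calcium pump Atp2a2, which other cells also use, stood at 15.16 in number 2 and 14.91 in number 3 (-0.25 ± 0.10, adjusted p = 0.317). Sln, sarcolipin of atrial muscle, Ckm, muscle creatine kinase, and the gap junction gene Gja1 had differences of -0.02, -0.03 and 0.05. Of the 26 members, 10 lay below the background in both numbers, where a difference near 0 says little. Without the carrier arrays 5 members of this list were called, and Pln, Mb, Fabp3, Casq2 and Trdn were called in all 4 fits that left out a treatment.

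Further muscle genes outside these lists were called lower. Ppp1r3a, which anchors a phosphatase to muscle glycogen, stood at 10.38, 10.39, 10.55 and 10.38 in number 2 and at 8.83, 9.09, 9.05 and 8.71 in number 3 (-1.50 ± 0.11, adjusted p = 4.65e-04). Myl1, a myosin light chain best known from skeletal muscle, dropped below the background, by at least 1.26 (adjusted p = 0.00169). Hspb7, a small heat shock protein of heart muscle, had a difference of -0.81 ± 0.13 (adjusted p = 0.0422). Chosen after their values were seen, Hspb6, a heat shock protein of muscle, had a difference of -0.91 ± 0.14 (adjusted p = 0.0411) and S100a1, a calcium sensor of heart muscle, of -0.89 ± 0.15 (adjusted p = 0.0454). Popdc2, a cyclic AMP binding protein of muscle membranes, was chosen in the same way and dropped below the background by at least 0.97 (adjusted p = 0.00542). So was Prkaa2, a catalytic subunit of AMP kinase, which dropped below it by at least 0.75 (adjusted p = 0.0326). The shared direction of genes so chosen carries no weight. In the list of skeletal muscle markers 0 of 18 measured members were called, against 0.414% of all probe sets. Of the 18, 13 lay below the background in both numbers, including the regulators Myod1 (4.77 and 4.82) and Myog (7.19 and 7.09).

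Cardiac transcription factors, which fibroblasts of the heart share in part, held 0 calls among 17 measured members, against 0.414% of all probe sets. Their median difference was -0.07. Mef2c, a regulator of muscle genes, had the largest difference (-0.54 ± 0.11, adjusted p = 0.0923), and its levels of 12.76 to 12.97 in number 2 did not overlap those of 12.26 to 12.49 in number 3. Tbx18 stood higher in number 3 (0.42 ± 0.11, adjusted p = 0.149). Gata4 stood at 12.70 and 12.80 in numbers 2 and 3 and Tbx20 at 16.11 and 16.25. Nkx2-5, a factor largely restricted to cardiomyocytes in the heart, lay below the background in both numbers (6.65 and 6.53).

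**Figure D3:**
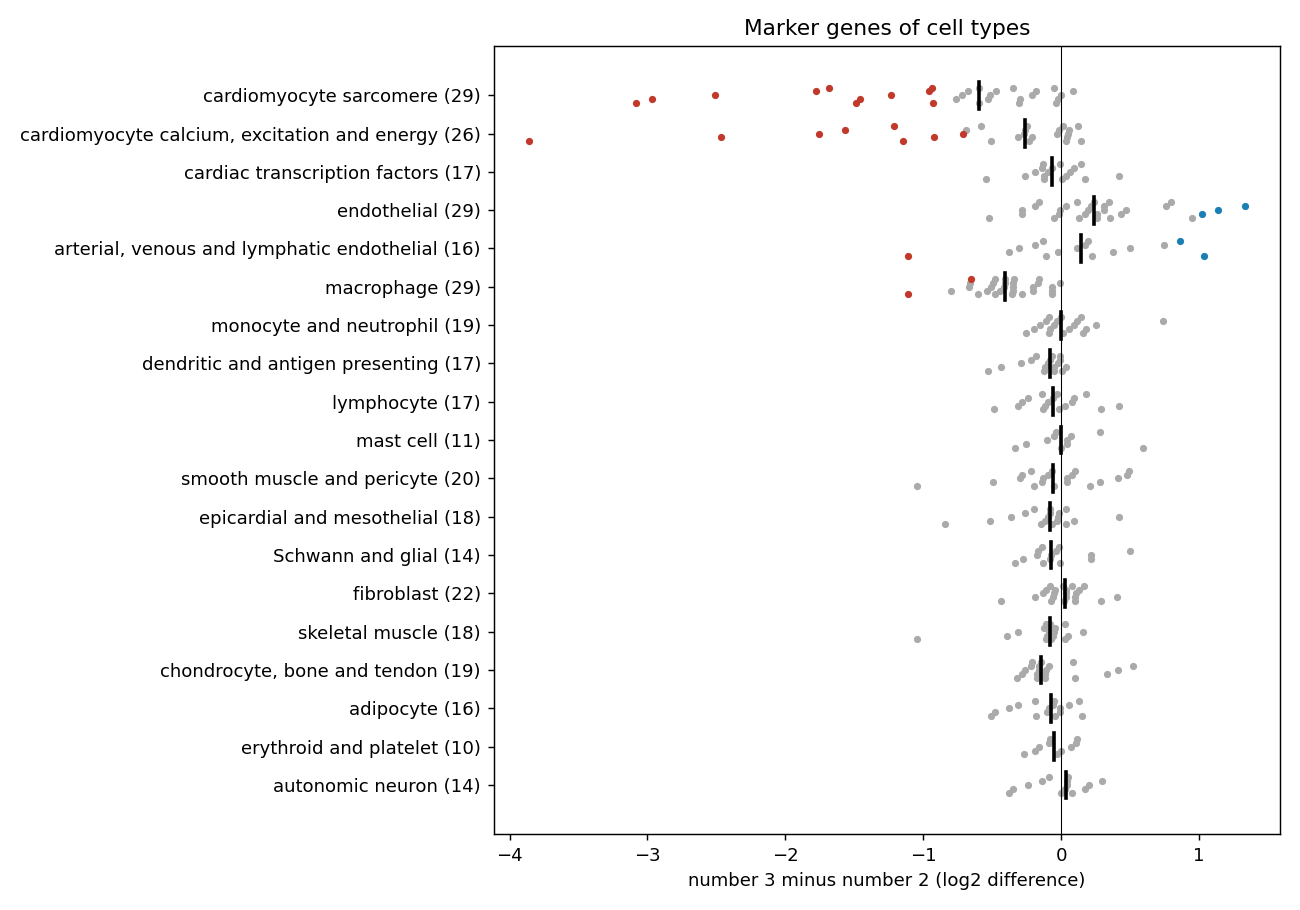
Difference between the numbers (number 3 minus number 2, log2) for every measured member of 19 marker lists, 1 point per gene, with the number of members in brackets and the list median as a black bar. Red points are called lower and blue points called higher at an adjusted p under 0.05; 19 of the red points lie in the 2 cardiomyocyte muscle lists, and all blue points lie in the endothelial lists.

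Some endothelial transcripts were higher in number 3. Cdh5, the VE-cadherin of endothelial junctions, stood at 11.12, 11.14, 10.78 and 11.28 in number 2 and at 12.64, 12.02, 12.82 and 12.17 in number 3 (1.33 ± 0.19, adjusted p = 0.0283). Kdr, the main receptor for VEGF, stood at 8.81, 9.004, 8.58 and 8.72 in number 2 and at 9.96, 9.56, 10.30 and 9.85 in number 3 (1.14 ± 0.17, adjusted p = 0.0318). Emcn, a sialomucin of venous and capillary endothelium, stood at 9.21, 9.10, 9.20 and 9.19 in number 2 and at 10.36, 9.79, 10.49 and 10.15 in number 3 (1.02 ± 0.12, adjusted p = 0.0126). For all of these the arrays of number 3 lay above those of number 2, and within number 3 the array with MIF was highest and that with sCD74 lowest. Efnb2, the ephrin of arterial endothelium, stood at 11.90, 11.78, 11.31 and 12.04 in number 2 and at 12.97, 12.88, 12.77 and 12.54 in number 3 (1.03 ± 0.15, adjusted p = 0.0295). Notch1, a receptor that directs arterial fate, lay below the background in number 2 and was higher in number 3 by at least 0.20 (adjusted p = 0.0312).

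These are 3 of 29 measured endothelial genes and 2 of 16 arterial, venous and lymphatic genes called higher, against 0.113% of all probe sets. In the second of these lists Lyve1, which macrophages also express, was called lower, and 9 members lay above 0 and 7 below. In the endothelial list 21 of 29 members lay above 0, the median difference was 0.23, and the arrays did not overlap in 8 members on the higher and 3 on the lower side, against 5.38% and 4.8% of all probe sets. The mean level of the list was 8.40 to 8.45 in number 2 and 8.63 to 8.89 in number 3. Pecam1, an adhesion molecule of endothelial junctions, stood at 8.82, 9.24, 8.97 and 9.30 in number 2 and at 10.15, 9.80, 10.57 and 9.60 in number 3 (0.95 ± 0.20, adjusted p = 0.101). Erg, an endothelial transcription factor, had a difference of 0.76 ± 0.13 (adjusted p = 0.0516). Others went the opposite way without a call, such as Flt1, a VEGF receptor (-0.52 ± 0.15, adjusted p = 0.188), and Vwf, the von Willebrand factor (-0.16 ± 0.10, adjusted p = 0.516). Outside the lists and chosen after its values were seen, Adgrf5, an adhesion receptor abundant in endothelium, had a difference of 0.79 ± 0.13 (adjusted p = 0.0439). Means in replicate number 1 were higher than in number 3 for each of Cdh5 (14.42), Kdr (11.53), Emcn (12.02), Efnb2 (14.42) and Pecam1 (12.03). The endothelial calls were the least steady of those above: 0 of 29 were called without the carrier arrays and without the arrays of both proteins, 3 without sCD74 and 4 without MIF. The macrophage list also differed between the numbers, and its part in these differences was not tested.

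Macrophage transcripts were abundant in both numbers and lower in number 3 as a group of values, although few were called. All 29 measured members lay below 0, with a median difference of -0.40, and the arrays did not overlap in 16, against 4.8% of all probe sets on that side, but only 2 were called, Cd14 and Lyve1, against 0.302%. The mean level of the list was 13.09 to 13.38 in the arrays of number 2 and 12.62 to 12.997 in those of number 3. Cd14, the lipopolysaccharide co-receptor, stood at 8.98, 8.998, 8.96 and 9.37 in number 2 and at 8.39, 8.13, 8.42 and 8.74 in number 3 (-0.66 ± 0.11, adjusted p = 0.0439). Lyve1, a hyaluronan receptor of resident macrophages and lymphatic vessels, was called with both means below the background (adjusted p = 0.0295). Csf1r, the receptor on which macrophages depend, stood at 14.71, 14.63, 14.35 and 14.67 in number 2 and at 14.01, 13.56, 13.99 and 13.62 in number 3 (-0.80 ± 0.14, adjusted p = 0.0588). Adgre1, which encodes F4/80, had a difference of -0.41 ± 0.11 (adjusted p = 0.161) and Lyz2, lysozyme, of -0.17 ± 0.10 (adjusted p = 0.521). Lyz2 stood at 17.45 and 17.28 in numbers 2 and 3. Without the carrier, the sCD74 or the combined arrays 0 macrophage markers were called, and 3 were called without the MIF arrays. Cd163 and Timd4, markers of resident macrophages, lay below the background in both numbers.

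Larger differences were found in myeloid genes outside the list. Cd5l, a secreted protein of tissue macrophages, stood at 11.76, 11.86, 10.39 and 11.72 in number 2 and at 10.10, 8.65, 9.62 and 8.72 in number 3 (-2.16 ± 0.35, adjusted p = 0.0439). Within each treatment number 3 was lower, by as little as -0.77 with MIF and as much as -3.21 with sCD74. Atp6v0d2, a proton pump subunit of macrophages and osteoclasts, stood at 14.55, 14.37, 13.69 and 14.24 in number 2 and at 13.20, 11.49, 12.32 and 11.74 in number 3 (-2.03 ± 0.25, adjusted p = 0.0126). The 2 arrays of number 3 with sCD74, alone or with MIF, were the lowest for both genes. The call of Cd5l was lost without the carrier (adjusted p = 0.156), the sCD74 (0.159) or the combined arrays (0.144), and that of Atp6v0d2 without the combined arrays (0.0827).

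Several of the remaining calls lower in number 3 are genes known from myeloid cells. They were picked after their values were seen, so their shared direction carries no weight. Hpse, heparanase, had a difference of -1.41 ± 0.15 (adjusted p = 0.00717) and Cbr2, a carbonyl reductase of tissue macrophages, of -1.31 ± 0.16 (adjusted p = 0.0139). Cd37, a leukocyte tetraspanin, and Fermt3, the kindlin of blood cells, had differences of -1.19 and -1.12. Entpd1, which encodes the ATP-degrading enzyme CD39, and P2ry6, a receptor for UDP, had differences of -1.11 and -0.88. Il21r, a cytokine receptor, Ltc4s, leukotriene C4 synthase, and Maf, a macrophage transcription factor, had differences of -0.88, -0.71 and -0.69. Adjusted p for these 9 genes lay between 0.00717 and 0.0487.

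**Figure D4:**
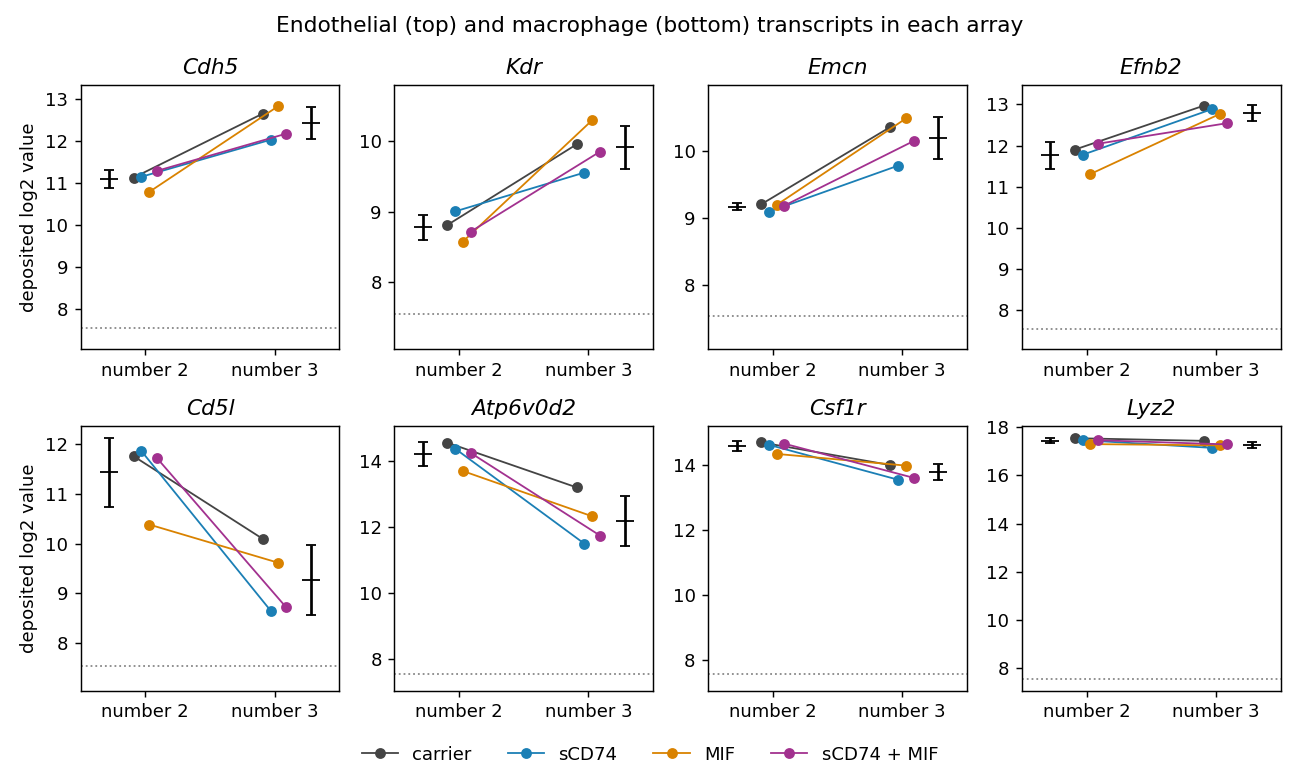
Deposited log2 values of 4 endothelial transcripts (top) and 4 macrophage transcripts (bottom) in each array, with lines joining arrays of the same treatment, the mean ± SD of the 4 arrays of each number beside the points and the background as a dotted line at 7.55. The endothelial genes are higher in number 3 in all 4 treatments, Cd5l and Atp6v0d2 are lower in number 3 by more with sCD74 than without, and Lyz2 stays between 17.15 and 17.55.

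Fibroblast and myofibroblast genes, the labelled identity of the cultures, were mostly high in both numbers and held no calls. Only 0.414% of all probe sets were called, so 0 calls in short lists do not show that the genes were unchanged. Of the fibroblast list 0 of 22 measured members were called, 2 lay below the background in both numbers, and the median difference was 0.03. Col1a1, the main collagen chain, stood at 16.03 ± 0.10 (SD, n = 4) in number 2 and 16.05 ± 0.08 in number 3, and Postn, periostin, at 16.02 ± 0.16 and 16.42 ± 0.08 (0.40 ± 0.11 SE, adjusted p = 0.167). Acta2, the smooth muscle actin of myofibroblasts, stood at 16.50 ± 0.03 and 16.36 ± 0.04 (-0.14 ± 0.10, adjusted p = 0.563). The contractile list held 0 calls among 21 measured members with a median of -0.05. Its arrays did not overlap in 3 members on the higher and 4 on the lower side, against 5.38% and 4.8% of all probe sets. Myl9, a myosin light chain, had a difference of -0.54 ± 0.10 (adjusted p = 0.0672). Des, desmin, had the largest difference of the contractile list, with both means below the background.

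Single genes of matrix and growth control did differ. Vcan, which encodes the proteoglycan versican, had the largest difference upward of all probe sets. It stood at 11.31, 11.67, 11.43 and 11.69 in number 2 and at 13.17, 12.75, 12.93 and 12.83 in number 3 (1.39 ± 0.14, adjusted p = 0.00499). Together with a probe set without a symbol, it was the only upward call kept in all 4 fits that left out a treatment. It was also the only called member among 29 matrix genes, against 0.113% of all probe sets called higher, and the list's median difference was 0.07. Spon2, a secreted matrix protein of the spondin family, had a difference of 1.05 ± 0.12 (adjusted p = 0.0111) and Adam12, a membrane protease of fibroblasts in repair, of 0.97 ± 0.12 (adjusted p = 0.0126). Igfbp2, a carrier of insulin-like growth factors, stood at 12.29 to 12.44 in number 2 and at 11.19 to 11.35 in number 3 (-1.14 ± 0.10, adjusted p = 0.00188). Its relative Igfbp5 lay higher in number 3 without a call (0.61 ± 0.11, adjusted p = 0.0665), and Igf2 had a difference of 0.01 ± 0.11.

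Among basement membrane genes 1 of 18 was called higher and 1 lower, against 0.113% and 0.302% of all probe sets. Col18a1, the collagen from which endostatin is cut, had a difference of 0.75 ± 0.12 (adjusted p = 0.0483), a call that no fit without a treatment kept (adjusted p from 0.0942 to 0.166). Npnt, the integrin ligand nephronectin, dropped below the background in number 3, by at least 0.83 (adjusted p = 0.0126). The list's median was 0.28 and the arrays did not overlap in 7 members on the higher side (5.38% of all probe sets), such as Lamc1 (0.50 ± 0.12, adjusted p = 0.115) and Col4a1 (0.52 ± 0.12, adjusted p = 0.123). Rspo3, an amplifier of Wnt signals, was the only call among 21 Wnt genes (-0.96 ± 0.14, adjusted p = 0.0331), against 0.302% of all probe sets called lower.

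The remaining genes of the naming rule comprised signalling and membrane genes. Cpxm2, a carboxypeptidase-like secreted protein, stood at 10.89, 10.65, 10.68 and 10.83 in number 2 and at 9.36, 8.75, 9.11 and 8.84 in number 3 (-1.75 ± 0.12, adjusted p = 3.83e-04), and its call was kept in all 4 fits without a treatment. On the higher side stood Olr1, a scavenger receptor for oxidised lipoprotein (0.88 ± 0.11, adjusted p = 0.0126), the mechanically gated channel Piezo2 (0.88 ± 0.14, adjusted p = 0.0408) and Kcnq1ot1, an imprinted antisense RNA (0.88 ± 0.14, adjusted p = 0.0439). Smpd3, a sphingomyelinase, had a difference of 0.86 ± 0.11 (adjusted p = 0.0142), and Tril, a partner of Toll-like receptors, of 0.85 ± 0.13 (adjusted p = 0.0318). Prkar2b, a regulatory subunit of protein kinase A, had a difference of 0.85 ± 0.10 (adjusted p = 0.0131), and Pde4b, a phosphodiesterase, of 0.83 ± 0.12 (adjusted p = 0.0313). Of these 7 genes, Olr1 alone had arrays that overlapped between the numbers, with a level of 11.09 in number 2 with MIF against 10.78 and 10.93 in number 3 with carrier and sCD74. Among calls named after their values were seen, Itga8, an integrin of myofibroblasts and smooth muscle, stood at 11.64 to 11.93 in number 2 and 10.70 to 10.77 in number 3 (-1.03 ± 0.10, adjusted p = 0.00454). Pdgfc, a platelet-derived growth factor, had a difference of -1.36 ± 0.18 (adjusted p = 0.0238).

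Cell cycle genes lay above 0 in 26 of 27 measured members, with a median difference of 0.24 and no overlap in 10 on the higher side (5.38% of all probe sets). None was called, against 0.414% of all probe sets. The median was 0.01 with carrier and 0.24 to 0.42 in the other treatments. Top2a, the topoisomerase of dividing cells, stood at 10.58 to 10.75 in number 2 and 11.17 to 11.25 in number 3 (0.56 ± 0.10, adjusted p = 0.0618). Mki67, the proliferation antigen, stood at 14.24 and 14.70 (0.46 ± 0.10, adjusted p = 0.101). Outside the list and chosen after its values were seen, Knl1, a gene of the kinetochore, was called higher (0.59 ± 0.10, adjusted p = 0.0484). Genes of oxidative phosphorylation lay below 0 in 21 of 22 members with a median of -0.15, and 0 were called (0.414% of all probe sets). The median was -0.29 with carrier and -0.33 with sCD74, against -0.05 with MIF and -0.04 with both proteins. The carrier and sCD74 arrays of number 3 also had the higher negative control medians (7.70 and 7.90), whose part in this split was not tested. Cholesterol synthesis genes lay below 0 in 14 of 16 with a median of -0.19, again with 0 calls (0.414% of all probe sets). With MIF alone their median was 0.27, against -0.46 to -0.24 in the other treatments.

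The 3 measured Y-linked genes were all higher in number 3 without a call. Eif2s3y, a translation factor, stood at 9.43, 9.38, 9.25 and 9.60 in number 2 and at 10.19, 10.07, 10.04 and 9.97 in number 3 (0.65 ± 0.11, adjusted p = 0.0588). Uty, a histone demethylase homologue, had a difference of 0.57 ± 0.10 (adjusted p = 0.0665) and Kdm5d, a histone demethylase, of 0.55 ± 0.13 (adjusted p = 0.126). The arrays did not overlap for Eif2s3y and Uty, against 5.38% of all probe sets without overlap on the higher side. The labels give no sex of the pups, and Xist and Ddx3y were not analysed here.

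Inflammatory lists held no calls, against 0.414% of all probe sets, and their medians differed between treatments. Interferon-stimulated genes had a median difference of -0.21. Within treatments the median was lowest with both proteins (-0.61) and above 0 with MIF alone (0.20), against -0.30 for sCD74 and -0.18 for carrier. Chemokines and cytokines had a median of 0.00, from -0.11 with carrier to 0.32 with MIF, and NF-kappaB targets of -0.03. Ccl8, a monocyte attractant, had the largest difference among chemokines (-1.39 ± 0.28, adjusted p = 0.0878), and Il6 lay higher in number 3 (0.58 ± 0.11, adjusted p = 0.0672). Among ligands and receptors of MIF, Ackr3, a chemokine scavenger that binds MIF, lay below the background in both numbers, and Mif itself had a difference of -0.09 ± 0.13 (adjusted p = 0.817).

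**Figure D5:**
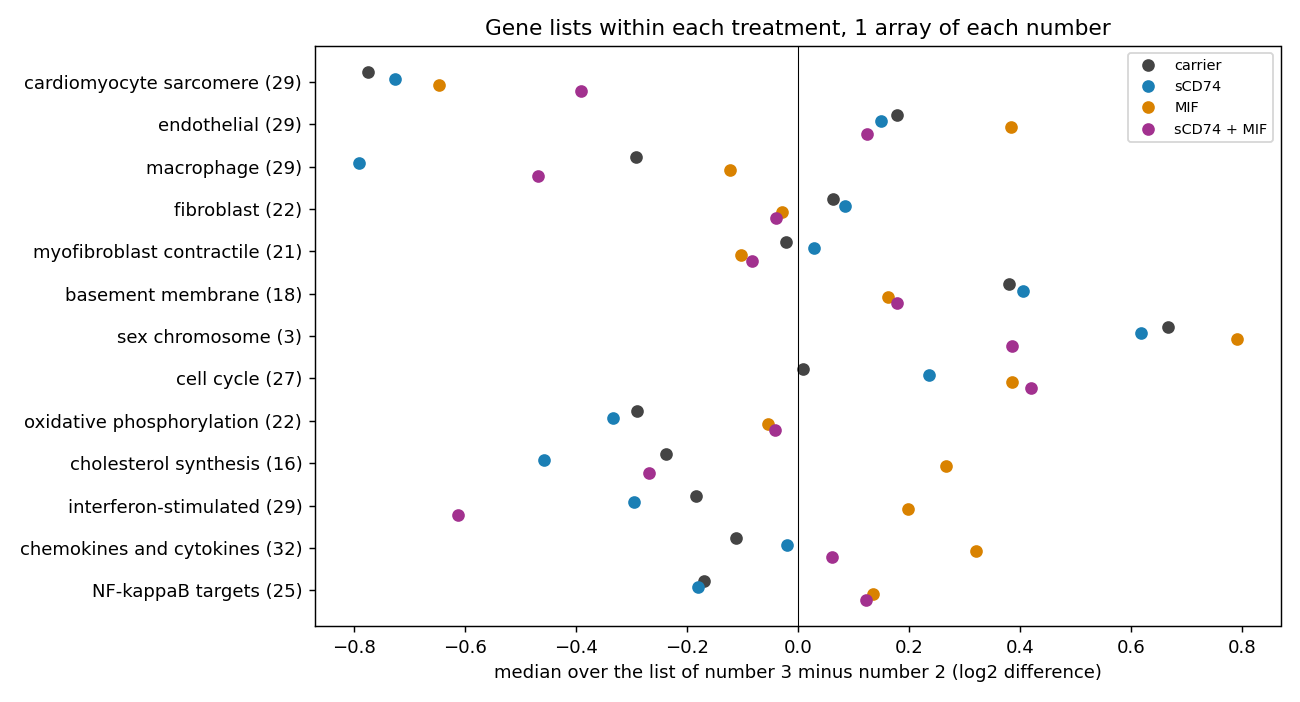
Median over each gene list of the difference between the 2 arrays of a treatment (number 3 minus number 2, log2), 1 point per treatment with 1 array of each number, and the number of measured members in brackets. The sarcomere list lies between -0.77 and -0.39 and the macrophage list between -0.79 and -0.12 in all 4 treatments, whereas the interferon-stimulated list runs from -0.61 with both proteins to 0.20 with MIF.

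Whether the difference between the numbers depended on MIF or on sCD74 was tested by an interaction term, with 2 pairs of arrays on each side. No probe set was called for MIF, with 1903 at an unadjusted p under 0.05 (8.57%) and a smallest adjusted p of 0.576 in limma. None was called for sCD74 either, with 1235 at an unadjusted p under 0.05 (5.56%) and a smallest adjusted p of 0.857. The median SE of the interaction was 0.21 for MIF and 0.23 for sCD74. In number 3 the negative control median was 7.70 and 7.90 in the arrays without MIF, against 7.47 in each array with MIF. The MIF term cannot tell this shift apart from a dependence on MIF. For Pln the interaction was 0.03 ± 0.19 with MIF and -0.13 ± 0.21 with sCD74. For Cd5l it was -1.89 ± 0.30 with sCD74 (adjusted p = 0.857) and for Atp6v0d2 -1.33 ± 0.23 (adjusted p = 0.857), so their larger differences in arrays with sCD74 did not pass. For Cdh5 it was -0.90 ± 0.24 with sCD74 (adjusted p = 0.879). With an intensity trend and robust variance 3 probe sets were called for MIF and 0 for sCD74. The sCD74 term called 7 probe sets without the sCD74 arrays and 2 without the combined arrays, where 1 pair remained on the sCD74 side.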

How the data were processed

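RNA of 12 cultures was measured on whole-transcript microarrays, and the 8 arrays of replicate numbers 2 and 3 were compared here. The authors deposited log2 values, 1 column per array. Transcriptome Analysis Console, RMA and Affymetrix Expression Console are named, with no version, per the submitters' processing notes. RMA usually corrects background, equalises the arrays' intensity distributions and summarises probes, which can hide a shift common to all genes. The deposited log2 values ran from 3.08 to 18.39, with 231 to 251 probe sets per array above 16, the limit of a 16-bit scanner, so a rescaling not given in the sources used here was applied and no differences are given as folds.

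Of 28846 probe sets, 6640 controls were left out. Of the other 22206, 19572 had 1 gene symbol in the platform's table, 0 several and 2634 none. The probe set with the highest mean stood for a gene. limma 3.58.1 in R 4.3.3 (lmFit, eBayes, two-sided) fitted replicate number with the 4 treatments as block, leaving 3 residual degrees of freedom, and 2 interaction fits. P-values were adjusted by Benjamini-Hochberg over all probe sets. The script was tested on simulated data. Precision is limited by how many arrays there are.

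The groups, 19 marker lists, 30 pathway lists and the naming rule were chosen with earlier results of these data known. Of 953 listed genes, 880 were measured and 73 were not analysed here. Named were the 15 called genes with the largest difference in each direction that moved alike in all 4 treatments and lay above background in the higher number, passing over predicted genes and some large families. Further, per list, the called members with the 4 smallest p or, without calls, the 2 with the smallest p, and 14 preset genes. Other names were chosen after their values were seen, as list examples. Alternatives were centring, quantile normalization, a brightness filter, named genes only, all 12 arrays, trend with robust variance, no block, and leaving out each treatment's 2 arrays. Promoters came from RefSeq (GRCm38.p6).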

Additional observations from a re-analysis of the deposited data

Results flagged for a closer look

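In each number's 4 arrays, a gene named by the rule was examined for an array whose distance from its nearest neighbour made up a larger share of the range of the 4 arrays than Dixon's critical value. This held in 18 of 240 groups of 4, where chance alone flags about 1 in 20, or 12. The 4 arrays of a number carry 4 different treatments, so a difference between treatments can also raise a flag. The 1 in 20 holds only without such a difference.

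Among cardiomyocyte genes, the sCD74 array was the highest of number 3 for Actn2 (share of the range 0.849) and for Casq2 (0.886, all arrays below background), and the MIF array was the highest of number 2 for Ppp1r3a (0.945). Among myeloid and inflammatory genes, the MIF array was the lowest of number 2 for Cd5l (0.905), C3ar1 (0.965), Ccl8 (0.881) and Pparg (0.844). The array with both proteins was the highest of number 2 for Cd14 (0.902), and the carrier array was the highest of number 3 for Adgre1 (0.884). The carrier array was the lowest of number 3 for Ifit1 (0.907), an interferon-stimulated gene, at 6.90 against 8.39 to 8.55, and for Hdc (0.836), below background throughout.

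Of the others, the MIF array was the lowest of number 2 for the imprinted gene Mest (0.951), and the sCD74 array was the lowest of number 2 for Emcn (0.831) and Myl9 (0.837) and of number 3 for Dusp1 (0.885). The array with both proteins was the highest of number 2 for Fbln2 (0.923) and the lowest of number 3 for Pmp22 (0.885), and the carrier array was the highest of number 2 for Dbp (0.838).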

How the results depend on the processing

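All 92 calls kept their direction in every alternative where they were tested, 82 of them in the setting that kept only probe sets above background. This was largely fixed in advance. Each call moved the same way in all 4 treatments, so leaving out a treatment could not reverse it. Apart from centring and quantile normalization, the other alternatives kept the difference itself and changed only its error or the probe sets tested. Calls (higher and lower) numbered 252 (109 and 143) above background only, 198 (76 and 122) with all 12 arrays, 659 (277 and 382) with an intensity trend and robust variance and 305 (125 and 180) without the treatment block. They numbered 80 with centring, 101 with quantile normalization and 89 with named genes only. Leaving out a treatment, which leaves 2 residual degrees of freedom, gave 25 to 114 calls, 2 to 19 of them higher and 23 to 95 lower. For the lists these fits gave 7 to 11 sarcomere, 5 to 7 calcium and energy, 0 to 4 endothelial and 0 to 3 macrophage calls. Macrophage calls numbered 1 with centring, 4 above background only, with all 12 arrays and without the block, and 16 with trend and robust variance; endothelial calls numbered 5 with all 12 arrays, with trend and robust variance and without the block. The interaction with MIF gave 3 calls with trend and robust variance, and leaving out a treatment gave 0 to 7 for that with sCD74. Leaving out a treatment reversed differences near 0, which ran from -0.072 to 0.069 for Igf2 and from -0.021 to 0.043 for Col1a1. Among comparisons of named genes with an alternative, 1145 stayed on the same side of the threshold, 92 passed it anew and 67 lost their call. The cause was not tested.

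No paired analysis was possible because the replicate number that would serve as the block is the contrast itself; the pairing used throughout was by treatment. Genes near or below background have only bounds.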

Other observations

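Some probe sets without a gene symbol were called. The probe set TC1500001141.mm.2 stood below background in 3 of 4 arrays of number 2 (6.62 to 6.80, and 7.82 with sCD74) and at 7.91 to 9.002 in number 3 (adjusted p = 9.51e-04 in limma), and TC0100003406.mm.2 had a difference of -1.41 ± 0.10 (adjusted p = 4.65e-04). Both were called in all 4 fits without a treatment, as were Clip4, a microtubule-associated protein (-0.99 ± 0.11, adjusted p = 0.00686), and Penk, the enkephalin precursor, which dropped below background by at least 0.53 (adjusted p = 0.00454). Mest, an imprinted gene of growing tissue, stood at 12.81, 12.85, 12.04 and 12.80 in number 2 and at 13.73, 13.24, 14.12 and 13.42 in number 3 without a call (1.01 ± 0.24, adjusted p = 0.124), and its mean in replicate number 1 was 15.55.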
